A study of Homo sapiens with 9 samples.

Results

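The 42 genes described here encode proteins that take a cell into and through mitosis: cyclins and mitotic kinases, the spindle checkpoint, the anaphase machinery, kinetochore and spindle proteins, and factors of cytokinesis. They were chosen by symbol from a fixed list, which was drawn up with earlier results of these data known. Each symbol matched 1 of the 60675 Ensembl gene IDs in the deposited count table. The cells were MM.1S, an established line from a human multiple myeloma, exposed for 24 h to EGCG (epigallocatechin gallate, a catechin of green tea) and then sequenced for RNA. The doses were 0 µM, called the control, 40 µM and 80 µM, with 3 libraries each. The stated purpose was to learn how EGCG drives myeloma cells into apoptosis. All groups are 1 cell line in culture, with no second line. The labels do not say that the 3 libraries of a dose were separate cultures, so p-values measure only the spread between these libraries.

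In dividing cells, mitotic entry is driven by CDK1 bound to cyclin A or B, helped by CDC25 phosphatases, PLK1 and Aurora kinases. The spindle checkpoint (BUB and MAD proteins, TTK) then holds back CDC20, the activator of the anaphase-promoting complex (APC/C), until every kinetochore is attached to the spindle. Most of these transcripts peak in G2 and M phase, and many carry in their promoters a CHR element (cell cycle genes homology region), bound by the MuvB core of the DREAM and B-MYB complexes, and CCAAT boxes, bound by NF-Y.

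RefSeq promoter windows (GRCh38.p14, 250 bases before to 50 after the start) were available for 35 of the 42 genes. A CHR element was searched as TTTGAA or TTCGAA and the CCAAT box as CCAAT, both on either strand. Genes with several annotated starts had several windows, and a gene was counted if any of its windows held the motif. CHR letters stood in 27 of the 35 genes (77.1%), against 19.5% of all 27305 genes with a window. CCAAT letters stood in 29 of 35 (82.9%), against 39.7%. Both stood in the same window for 22 of 35 genes (62.9%), against 7.85% of all genes with a window. 5 windows are shown, all on the plus strand, because they span the patterns of expression described below. CCNB2 (chr15:59104896-59105195), PLK1 (chr16:23678639-23678938) and CDC20 (chr1:43358731-43359030) were lower at 80 µM than in the control, HMMR (chr5:163460382-163460681) was not, and KIF2C (chr1:44739587-44739886) has neither motif. KIF2C was not lower at 80 µM, whereas CENPE, which is not shown, also has neither motif and was lower. Capitals mark CHR and CCAAT letters on either strand, so TTCAAA and ATTGG are the same motifs read on the other strand, and neighbouring motifs that touch or overlap run together.
CCNB2: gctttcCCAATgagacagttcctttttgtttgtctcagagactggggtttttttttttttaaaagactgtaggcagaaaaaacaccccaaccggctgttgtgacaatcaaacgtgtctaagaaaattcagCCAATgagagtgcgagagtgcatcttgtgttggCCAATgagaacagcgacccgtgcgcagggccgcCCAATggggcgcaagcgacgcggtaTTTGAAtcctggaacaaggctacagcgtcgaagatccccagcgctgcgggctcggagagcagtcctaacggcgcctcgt
PLK1: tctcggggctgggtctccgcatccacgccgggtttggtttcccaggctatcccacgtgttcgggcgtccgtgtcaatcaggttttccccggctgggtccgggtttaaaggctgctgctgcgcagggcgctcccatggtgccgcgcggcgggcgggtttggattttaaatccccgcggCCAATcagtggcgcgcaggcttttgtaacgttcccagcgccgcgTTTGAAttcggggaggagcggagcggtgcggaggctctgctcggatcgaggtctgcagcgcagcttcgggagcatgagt
CDC20: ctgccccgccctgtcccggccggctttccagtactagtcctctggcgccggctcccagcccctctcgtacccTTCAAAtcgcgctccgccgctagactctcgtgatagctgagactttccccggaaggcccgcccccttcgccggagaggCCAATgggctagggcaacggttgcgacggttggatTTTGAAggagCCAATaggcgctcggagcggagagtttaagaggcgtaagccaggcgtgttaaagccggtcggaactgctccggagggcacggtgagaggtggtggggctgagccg
HMMR: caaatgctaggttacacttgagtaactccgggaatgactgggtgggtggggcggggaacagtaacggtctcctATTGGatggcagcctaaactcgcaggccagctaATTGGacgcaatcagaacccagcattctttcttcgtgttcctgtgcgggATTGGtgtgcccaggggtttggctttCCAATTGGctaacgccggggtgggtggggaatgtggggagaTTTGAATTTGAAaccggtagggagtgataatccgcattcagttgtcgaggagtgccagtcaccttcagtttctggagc
KIF2C: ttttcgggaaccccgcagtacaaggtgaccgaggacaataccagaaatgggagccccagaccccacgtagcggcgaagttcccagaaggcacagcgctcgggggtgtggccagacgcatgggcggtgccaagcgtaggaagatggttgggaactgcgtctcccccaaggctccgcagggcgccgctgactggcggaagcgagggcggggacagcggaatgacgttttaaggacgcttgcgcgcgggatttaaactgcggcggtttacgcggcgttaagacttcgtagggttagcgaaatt

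All 42 genes passed the filter on low counts, which kept 15982 genes. Library totals ran from 12674490 to 16427343 counts. The 42 genes together took 0.482 ± 0.0441% of all counts in control libraries, 0.532 ± 0.0187% of counts at 40 µM and 0.36 ± 0.0063% of counts at 80 µM (mean ± SD over 3 libraries). Per transcript length, their median deposited FPKM was 14.8 in control libraries, 16.2 for 40 µM and 10.5 for 80 µM, and that of all genes tested was 2.35, 2.37 and 2.5. In the control the order of mean FPKM began with CCNA2 at 74.1, TPX2 at 53.8, CDC20 at 52.4 and TOP2A at 50.8 and ended with CDC25C at 2.49. The ranges of TPX2, CDC20 and TOP2A overlapped, and that of CCNA2 lay above them. The 10 plasma cell and myeloma markers were detected in every library, with a summed level of 8070 to 8510 CPM (counts scaled to library size) in the control, 7690 to 7910 CPM at 40 µM and 6680 to 7180 CPM at 80 µM. Stromal, monocyte, T or NK and mature B cell markers numbered 5 each, and 4 of each 5 stayed under 1 CPM in all libraries. The remaining ones were PDGFRB (0.666 to 2.82 CPM), CD68 (4.26 to 14.6 CPM), CD3E (1.55 to 4.87 CPM) and CR2 (8.13 to 23.4 CPM), in that order.

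Many of the genes fell at 80 µM, and at 40 µM no gene passed the test. Against the control, the quasi-likelihood test of edgeR, with Benjamini-Hochberg adjusted p-values over all genes, called 24 of the 42 lower at 80 µM (57.1%, against 17.5% of all genes tested) and 0 higher (17.4% of all genes), where 34.9% of all genes were called in either direction. At 40 µM it called 0 higher (1.49% of all genes) and 0 lower (0.813%), with 2.3% of all genes called in either direction. Between the doses, 33 of the 42 were lower at 80 µM than at 40 µM (12.1% of all genes) and 0 higher (10.9%), with 23% of all genes called in either direction. In bulk RNA, fewer cells in G2 and M phase and less RNA per cell cannot be told apart. The median log2 fold change was 0.20 at 40 µM and -0.45 at 80 µM against the control, beside medians of 0.015 and -0.001 over all genes, and -0.57 at 80 µM against 40 µM, beside -0.011. Both comparisons with the control use the same 3 control libraries.

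The highest of the 3 group means was at 40 µM for 34 genes (25.3% of all genes) and in the control for the other 8 (34.5%). No gene had its highest mean at 80 µM, where 40.1% of all genes had theirs. The lowest mean was at 80 µM for 38 of the 42 (41.1% of all genes) and in the control for the other 4 (36.2%), which were KIF2C, NUSAP1, HMMR and ECT2. Counted by library against the control mean, 18 to 26 of the 42 genes were above it in the control libraries, 29 to 33 in those at 40 µM and 3 to 6 in those at 80 µM.

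**Figure D1:**
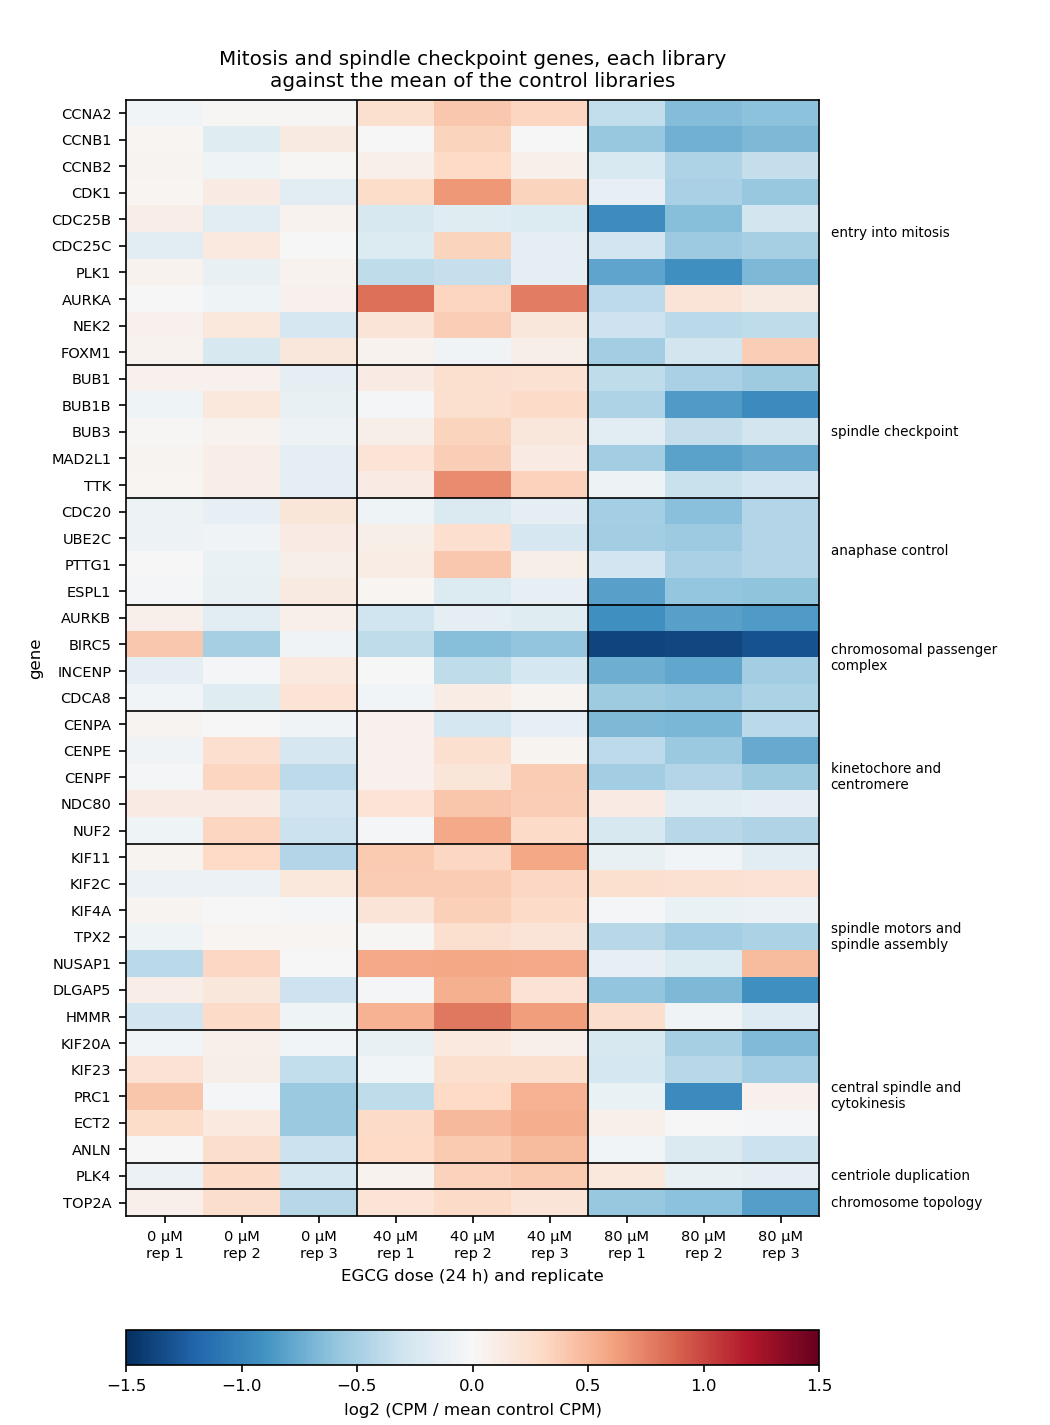
Level of each of the 42 genes (rows, grouped by role) in each of the 9 libraries (columns, by EGCG dose and replicate), as log2 of CPM over the mean CPM of the 3 control libraries. Blue is below and red above the control mean, and most rows are pale red at 40 µM and blue at 80 µM, with KIF2C red at both doses and BIRC5 darkest blue at 80 µM.

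Each count by role below stands beside 17.5% of all genes tested called lower at 80 µM against the control, and 12.1% against 40 µM. Among the 10 genes of mitotic entry, 6 fell at 80 µM against the control, and the median log2 fold change was -0.41. PLK1 (ENSG00000166851, chr16:23677656-23690367, GENCODE 29 on GRCh38), the polo-like kinase that activates CDC25 and matures centrosomes, had 209, 185 and 208 CPM in the control, 153, 157 and 183 CPM at 40 µM and 116, 106 and 126 CPM at 80 µM. The 3 groups did not overlap, with the control highest and 80 µM lowest. The fold change of PLK1 at 80 µM was -0.79 ± 0.11 (log2, SE, adjusted p = 0.000418) against the control and -0.51 ± 0.11 against 40 µM (adjusted p = 0.00879, and 0.0504 without 80 µM replicate 2). At 40 µM against the control it was -0.29 ± 0.11 and did not pass (adjusted p = 0.186).

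The cyclins that bind CDK1 did not share this order. CCNA2 (cyclin A2, chr4:121816444-121823933) had 198, 207 and 207 CPM in the control, 242, 269 and 256 CPM at 40 µM and 158, 131 and 133 CPM at 80 µM. The 40 µM libraries were all above and the 80 µM libraries all below the control. The difference at 40 µM was 0.33 ± 0.10 and did not pass (adjusted p = 0.123), whereas at 80 µM CCNA2 fell by 0.54 ± 0.10 against the control (log2, adjusted p = 0.00241) and by 0.86 ± 0.10 against 40 µM (adjusted p = 0.000547). CCNB1 (cyclin B1, chr5:69167010-69178245) had 136, 117 and 147 CPM in the control, 133, 168 and 133 CPM at 40 µM and 89.9, 81.1 and 83.7 CPM at 80 µM. The control and 40 µM libraries overlapped, and the 80 µM libraries were below both. CCNB1 fell by 0.65 ± 0.13 at 80 µM against the control (adjusted p = 0.00279), and its difference at 40 µM was 0.11 ± 0.13 (adjusted p = 0.644).

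Of the other entry genes, CCNB2 (cyclin B2), the phosphatase gene CDC25B and the centrosome kinase gene NEK2 also fell at 80 µM, by 0.35, 0.59 and 0.37 on the log2 scale. These calls moved with the processing: NEK2 had an adjusted p of 0.0455 and lost the call in 14 of 18 alternatives, CCNB2 lost it in 6 and CDC25B in 3. CDC25C, FOXM1 (a transcription factor of G2 and M genes), AURKA (Aurora A, a spindle pole kinase) and CDK1 did not pass. CDK1 and AURKA are given in full although they were chosen after their values were seen. CDK1 had 126, 135 and 109.9 CPM in the control, 149, 195 and 157 CPM at 40 µM and 114, 88.4 and 83.5 CPM at 80 µM. Its 80 µM libraries overlapped the control but not the 40 µM libraries, against which CDK1 fell by 0.81 ± 0.15 (adjusted p = 0.0043). AURKA had 45.8, 43.7 and 47.8 CPM in the control, 81.1, 57.3 and 77.9 CPM at 40 µM and 34.7, 52.2 and 50.1 CPM at 80 µM. AURKA was above the control in all 3 libraries at 40 µM (0.66 ± 0.18, adjusted p = 0.0832 in edgeR and 0.016 in DESeq2) and spread around it at 80 µM (0.00 ± 0.18, adjusted p = 0.992).

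Of the 5 spindle checkpoint genes, 3 fell at 80 µM against the control, and all 5 were lower at 80 µM than at 40 µM. MAD2L1 (chr4:120055608-120067074) encodes MAD2, which binds CDC20 while kinetochores are unattached. It had 126, 132 and 111 CPM in the control, 141, 159 and 134 CPM at 40 µM and 85.9, 70.6 and 72.6 CPM at 80 µM. All 40 µM libraries were above and all 80 µM libraries below the control. MAD2L1 fell by 0.69 ± 0.12 at 80 µM against the control (adjusted p = 0.0014) and by 0.93 ± 0.12 against 40 µM (adjusted p = 0.000757), and its 0.24 ± 0.12 at 40 µM did not pass (adjusted p = 0.281).

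BUB1B, which encodes the checkpoint protein BUBR1, had 128, 149 and 124 CPM in the control, 132, 158.5 and 163 CPM at 40 µM and 97.1, 74.3 and 69.2 CPM at 80 µM. The 40 µM libraries overlapped the control, and the 80 µM libraries lay below both. BUB1B fell by 0.74 ± 0.15 at 80 µM against the control (adjusted p = 0.00321). The kinase gene BUB1 fell by 0.47 ± 0.10 (adjusted p = 0.0039), whereas BUB3 at -0.26 and TTK (the kinase MPS1) at -0.23 did not pass (adjusted p = 0.0608 and 0.289). At 40 µM the 5 genes lay between 0.17 and 0.41 above the control, and none passed.

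The 4 genes of anaphase control all fell at 80 µM against the control, by 0.40 to 0.66 on the log2 scale, and all were lower than at 40 µM. CDC20, which activates the APC/C, had 139.8, 136 and 167 CPM in the control, 141, 127 and 133 CPM at 40 µM and 103, 95.8 and 109 CPM at 80 µM. The control and 40 µM libraries overlapped, and the 80 µM libraries were below both. CDC20 fell by 0.52 ± 0.11 against the control (adjusted p = 0.00403) and by 0.38 ± 0.11 against 40 µM (adjusted p = 0.0298). The second of these calls was lost in 7 of 18 alternatives. These included leaving out control replicate 1, 40 µM replicate 1 or 3, or any 80 µM replicate (adjusted p = 0.0506 to 0.132). ESPL1, which encodes separase, the protease that cuts cohesin, had 165, 156 and 185 CPM in the control, 173, 147 and 155 CPM at 40 µM and 96.0, 113 and 111 CPM at 80 µM. Again only the 80 µM libraries stood apart, and ESPL1 fell by 0.66 ± 0.11 against the control (adjusted p = 0.00128). PTTG1 (securin, the inhibitor of separase) fell by 0.40 and UBE2C (an APC/C ubiquitin-conjugating enzyme) by 0.50. PTTG1 lost its call in 6 of 18 alternatives and UBE2C in 2.

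The chromosomal passenger complex corrects wrong kinetochore attachments and acts in cytokinesis. Its 4 genes all fell at 80 µM, with a median of -0.76 on the log2 scale. BIRC5 (survivin, ENSG00000089685, chr17:78214186-78225636) had 97.2, 51.8 and 71.0 CPM in the control, 56.5, 47.3 and 48.5 CPM at 40 µM and 28.2, 28.4 and 29.6 CPM at 80 µM. The control libraries were widely spread and overlapped those at 40 µM, whereas the 80 µM libraries were tight and below all others. At 80 µM, BIRC5 was 0.392 times the control level (log2 fold change -1.35 ± 0.20, adjusted p = 0.000548), the largest fall of the 42 genes and the single one past 2-fold. At 40 µM it was -0.53 ± 0.19 and did not pass (adjusted p = 0.167), and its call at 80 µM against 40 µM (-0.82 ± 0.20, adjusted p = 0.0137) was lost without 80 µM replicate 2 (adjusted p = 0.0528).

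AURKB (Aurora B, the kinase of the complex, chr17:8204733-8210600) had 82.6, 69.25 and 82.4 CPM in the control, 63.6, 71.1 and 68.9 CPM at 40 µM and 41.4, 44.6 and 43.3 CPM at 80 µM. The 40 µM libraries overlapped the lowest control library, and those at 80 µM were below both groups. AURKB fell by 0.86 ± 0.11 against the control (adjusted p = 0.000258) and by 0.65 ± 0.11 against 40 µM (adjusted p = 0.00259). The scaffold gene INCENP and CDCA8 (borealin) fell by 0.67 and 0.53 at 80 µM against the control (adjusted p = 0.00282 and 0.00453).

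**Figure D2:**
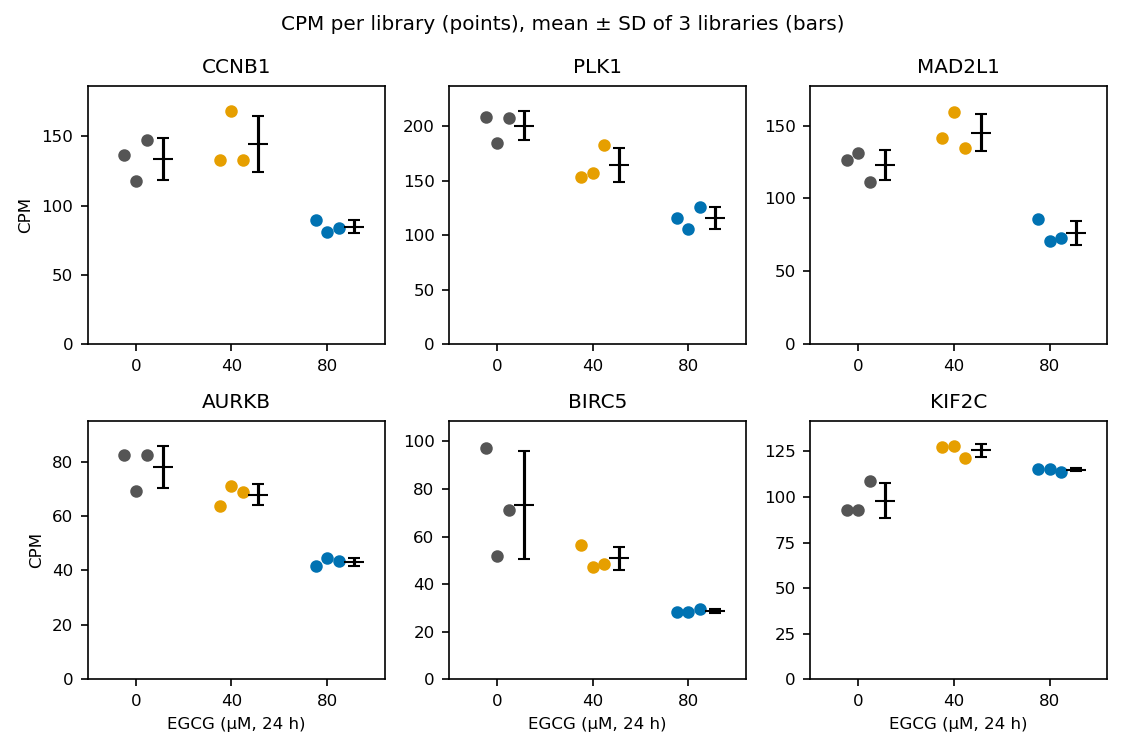
CPM of 6 genes (panels) against EGCG dose in µM after 24 h, with a point per library and a bar for the mean ± SD of the 3 libraries at each dose. CCNB1, PLK1, MAD2L1, AURKB and BIRC5 were lowest at 80 µM, whereas the KIF2C libraries at 40 and 80 µM were all above those of the control.

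Of the 5 kinetochore and centromere genes, 3 fell at 80 µM. CENPA, the histone H3 variant that marks centromeres, had 19.4, 18.8 and 18.2 CPM in the control, 19.7, 15.6 and 17.3 CPM at 40 µM and 11.8, 11.7 and 14.2 CPM at 80 µM. The 80 µM libraries were below both other groups, which overlapped. CENPA fell by 0.58 ± 0.14 against the control (adjusted p = 0.00819). Its call against 40 µM (-0.48 ± 0.14, adjusted p = 0.0299) was lost in 8 of 18 alternatives. These included leaving out replicate 1 or 3 of 40 µM, or 1 or 2 of 80 µM (adjusted p = 0.066 to 0.121). CENPE, a kinetochore motor, had 56.2, 69.4 and 48.9 CPM in the control, 60.6, 68.5 and 59.9 CPM at 40 µM and 44.25, 39.5 and 34.5 CPM at 80 µM. The 80 µM libraries of CENPE lay just under the lowest control library, and it fell by 0.56 ± 0.15 (adjusted p = 0.0146). CENPE missed the threshold at an adjusted p of 0.0562 when control replicate 2 was left out, and at 0.0502 and 0.0668 when the second and the third library at 80 µM were. Over all alternatives CENPE lost this call in 4 of 18. CENPF, a large kinetochore protein, fell by 0.50 and lost its call in 7 of 18 alternatives, and NDC80 and NUF2, partners in the complex that grips microtubules, were at -0.05 and -0.36 and did not pass.

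The 7 genes of spindle motors and spindle assembly ran from -0.72 to 0.23 on the log2 scale at 80 µM against the control. Their median log2 fold change was 0.36 at 40 µM and -0.07 at 80 µM against the control. At 80 µM against the control 2 of the 7 fell, near the 17.5% of all genes, so that count is no result about the role. Against 40 µM 5 of the 7 were lower at 80 µM (12.1% of all genes), with a median of -0.54. TPX2, which activates Aurora A on the spindle, had 246, 263 and 263 CPM in the control, 261, 304 and 293 CPM at 40 µM and 193, 181 and 185 CPM at 80 µM. The 80 µM libraries were below all others, and TPX2 fell by 0.47 ± 0.09 against the control (adjusted p = 0.00315). DLGAP5 (HURP, a spindle assembly factor) had 61.1, 64.3 and 46.2 CPM in the control, 56.2, 82.8 and 66.5 CPM at 40 µM and 37.9, 35.9 and 30.2 CPM at 80 µM. Its 80 µM libraries were again below all others, and it fell by 0.72 ± 0.18 against the control (adjusted p = 0.00928) and by 0.98 ± 0.18 against 40 µM (adjusted p = 0.00354).

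KIF2C (ENSG00000142945, chr1:44739818-44767767), the microtubule-depolymerising kinesin MCAK, lay above the control at both doses. It had 92.6, 92.6 and 109 CPM in the control, 127, 128 and 122 CPM at 40 µM and 115.5, 115 and 114 CPM at 80 µM. Neither dose overlapped the control, and KIF2C was the single gene of the 42 that was higher without overlap at 80 µM (24.6% of all genes were). The differences of 0.36 ± 0.10 at 40 µM and 0.23 ± 0.10 at 80 µM did not pass (adjusted p = 0.0845 and 0.091), although the second passed without control replicate 3 (0.29, adjusted p = 0.0303). HMMR, a spindle assembly protein that is also a hyaluronan receptor, was named after its values were seen. HMMR had 38.7, 57.6 and 45.2 CPM in the control, 67.9, 81.6 and 72.8 CPM at 40 µM and 56.7, 45.6 and 41.1 CPM at 80 µM. Its 40 µM libraries were above all others (0.65 ± 0.17 against the control, adjusted p = 0.0744, and 0.0457 without control replicate 2), and its 80 µM libraries mixed with the control (0.02 ± 0.17, adjusted p = 0.939). The kinesins KIF11 and KIF4A and the microtubule-bundling NUSAP1 were at -0.10, -0.07 and 0.08 at 80 µM, and none passed.

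Of the 5 genes of the central spindle and cytokinesis, KIF20A fell at 80 µM against the control and the other 4 did not pass. That count is near the 17.5% of all genes called lower and is no result about the role. Against 40 µM 3 of the 5 were lower at 80 µM (12.1% of all genes), with a median of -0.49. KIF20A, a kinesin of the cleavage furrow region, had 43.9, 47.5 and 43.8 CPM in the control, 41.7, 49.7 and 47.5 CPM at 40 µM and 38.3, 31.8 and 28.5 CPM at 80 µM. The 80 µM libraries were below both other groups, and KIF20A fell by 0.45 ± 0.13 (adjusted p = 0.0218). That call was lost in 5 of 18 alternatives. These included leaving out the first or second control library, or replicate 2 or 3 of 80 µM (adjusted p = 0.0538 to 0.0979). KIF23, the kinesin of centralspindlin, had 88.8, 81.7 and 59.5 CPM in the control, 74.3, 90.9 and 90.5 CPM at 40 µM and 64.1, 57.6 and 53.8 CPM at 80 µM. Control replicate 3 reached down among the 80 µM libraries, and KIF23 was at -0.39 ± 0.16 (adjusted p = 0.0775), or -0.56 without that library (adjusted p = 0.0101). PRC1, which bundles midzone microtubules, had the widest spread of the 42 genes, with an SE of 0.32 in each comparison. ECT2 (the RHOA activator) and ANLN (anillin) were at 0.01 and -0.19 at 80 µM.

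PLK4, the kinase that starts centriole duplication, had 34.2, 44.3 and 30.2 CPM in the control, 37.5, 46.0 and 47.7 CPM at 40 µM and 40.3, 33.4 and 33.1 CPM at 80 µM. The 3 groups overlapped, and no comparison passed (-0.02 ± 0.16 at 80 µM against the control, adjusted p = 0.922). TOP2A (chr17:40388516-40417950), the topoisomerase that untangles sister chromatids, had 385, 438 and 273 CPM in the control, 420.4, 447 and 419 CPM at 40 µM and 246, 238 and 206 CPM at 80 µM. Control replicate 3 was the lowest of its group, and the 80 µM libraries were below it. TOP2A fell by 0.67 ± 0.16 against the control (adjusted p = 0.00763) and by 0.90 ± 0.16 against 40 µM (adjusted p = 0.0031).

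**Figure D3:**
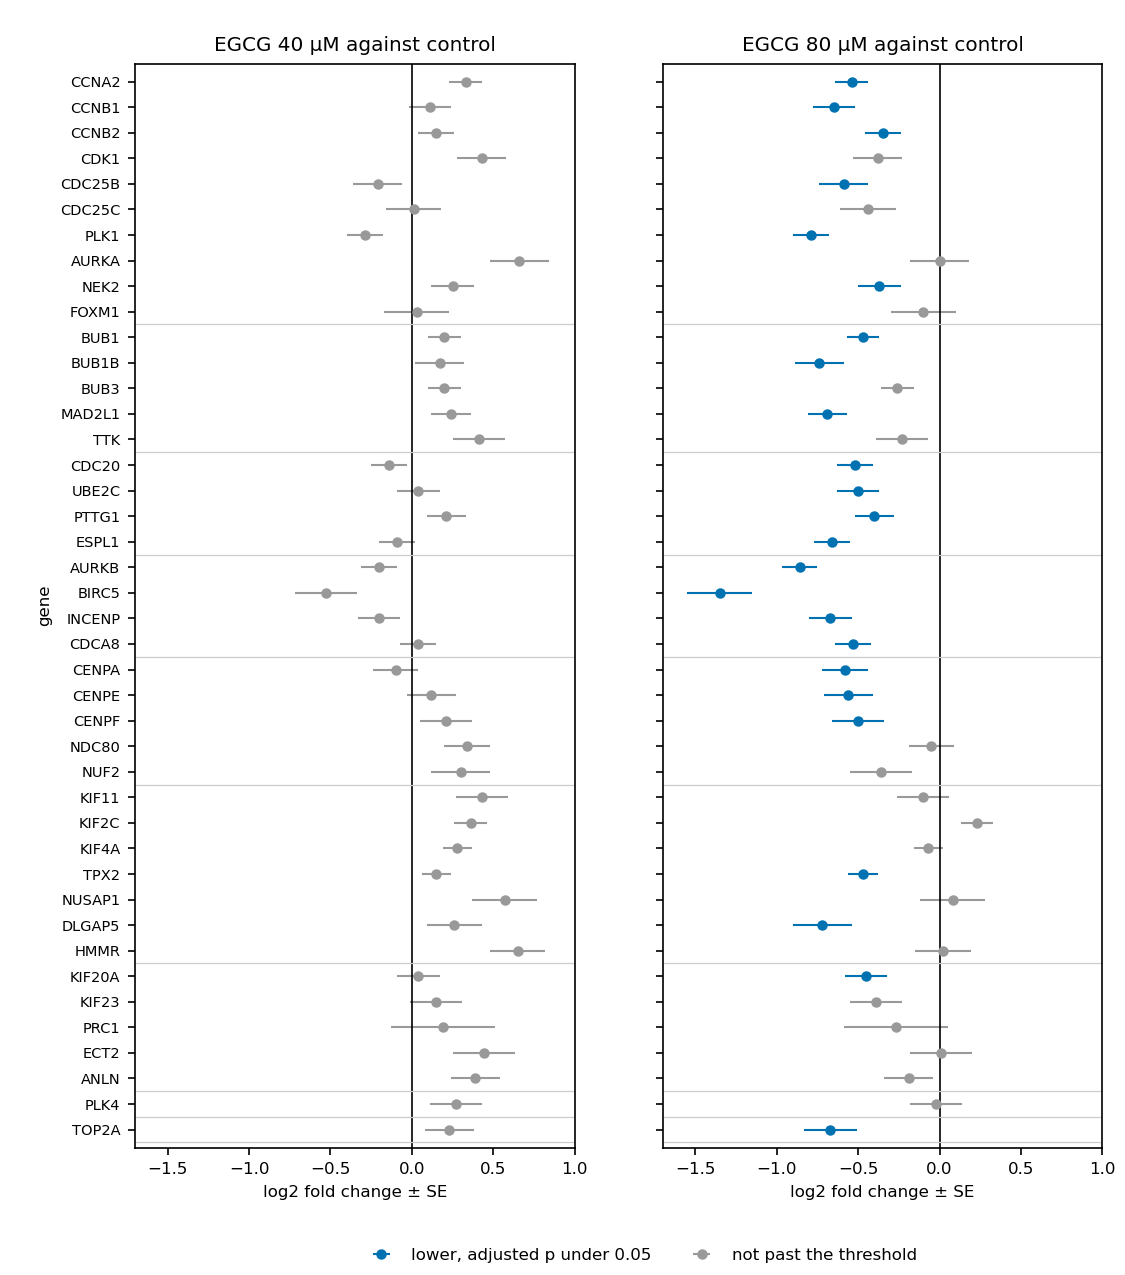
Log2 fold change against the control (x axis, points, with bars for ± SE) of the 42 genes (y axis, grouped by role with grey lines) at 40 µM (left) and 80 µM (right). No gene passed at 40 µM, where 34 points lie above 0, and 24 passed as lower at 80 µM (blue), where 38 points lie below 0.

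At 40 µM the differences were small and mostly upward. They ran from -0.53 to 0.66 on the log2 scale, and 34 genes were above 0 and 8 below, where 51.8% of all genes were above 0. At an unadjusted p under 0.05, edgeR had 12 genes higher (11% of all genes) and 2 lower (8.93%). DESeq2 called 3 of the 42, all higher (AURKA, HMMR and KIF2C, adjusted p = 0.016, 0.0126 and 0.0266), and 857 genes in all. Limma-voom called 0 of the 42 and 350 genes in all. Each had 14 of the 42 at an unadjusted p under 0.05. Shares over all genes are not given for these tools, so their counts are no result about the 42. All 3 libraries at 40 µM were above all 3 controls for 18 genes (12.9% of all genes tested) and below them for 2 (11.5%), which were PLK1 and CDC25B.

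The 80 µM libraries were all below the 3 controls for 26 genes (25.3% of all genes). With 80 µM set against the control, 4 genes had a log2 fold change above 0 (49.9% of all genes), and at an unadjusted p under 0.05 there were 28 lower (22.5%) and 1 higher (22.3%). DESeq2 and limma-voom called 0 genes higher too. With only control replicate 1 as control, the median stayed at -0.45. That fit has a single control library, which is assumed to vary like the libraries of the other groups. With 80 µM set against 40 µM, all 42 differences were below 0, from -0.98 to -0.12, where 49.2% of all genes were above 0. The libraries of these doses did not overlap for 39 genes, all lower at 80 µM (21.5% of all genes), and no gene was higher without overlap (20.1%). The 9 genes with no call there were CDC25B, CDC25C, FOXM1, NDC80, KIF2C, NUSAP1, PRC1, ECT2 and PLK4. Without 80 µM replicate 2, the count of 33 dropped to 19, and no share over all genes is given for that fit.

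Base composition moved with the differences at 40 µM. Over the 42 genes, the log2 fold change at 40 µM had a Spearman correlation of -0.73 with the GC content of the gene's longest transcript, and over the 15785 tested genes with a known GC content it was -0.43. At 80 µM these were -0.34 and -0.21. The genes share their libraries here, so these are descriptions. The 42 transcripts had a median GC content of 43.2% (35.3 to 59.6%), against 47.9% over the tested genes. Single libraries followed GC content within their groups: over the 42 genes, the deviation from the group mean correlated with GC content at 0.73 in 80 µM replicate 3, at -0.81 in control replicate 2 and at 0.77 in control replicate 3. The GC trend of each library was also added to the edgeR offsets, a step chosen after seeing the data. That trend came from deviations from the mean of all 9 libraries, so the offset also removes GC trends between doses. It therefore cannot tell a GC trend of single libraries from one that goes with dose. With this offset the median at 40 µM dropped to 0.06. That at 80 µM was -0.47, with 30 genes lower and 1 higher (19.3% and 19.5% of all genes). The higher one was KIF2C, at 0.27 ± 0.07 (adjusted p = 0.011), which was then also called at 40 µM at 0.39 ± 0.07 (adjusted p = 0.0164).

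**Figure D4:**
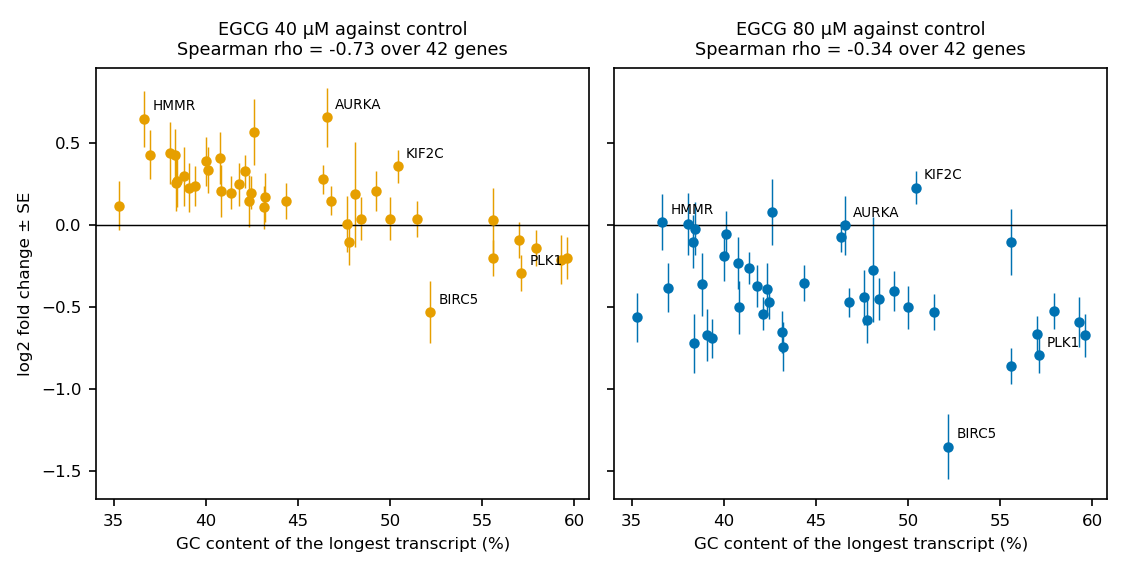
Log2 fold change against the control (y axis, points with ± SE) of the 42 genes against the GC content of their longest transcript in percent (x axis), at 40 µM (left) and 80 µM (right). At 40 µM the points slope down from HMMR at low GC content to PLK1 at high GC content (Spearman rho -0.73), and at 80 µM most points lie below 0 across the range (rho -0.34).

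Falls were counted with and without CHR letters. Between 80 µM and the control, 14 of the 27 genes with CHR letters in any window fell (median -0.44), and 7 of the 8 without them (median -0.50), beside 17.5% of all genes tested. CCNB2, PLK1 and CDC20 have both motifs and fell, and HMMR has both and was at 0.02. CCNA2, CCNB1 and AURKB fell with CCAAT letters but no CHR letters of this exact spelling in any window.

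Other genes of the same processes were counted over lists of 137 genes in all, every one of which passed the filter. Of the 137, 49 fell and 2 rose at 80 µM against the control (17.5% and 17.4% of all genes tested), with a median of -0.28, beside -0.001 over all genes. At 40 µM edgeR and limma-voom called 0 of the 137 (31 and 34 at an unadjusted p under 0.05). DESeq2 called 6 higher and 1 lower, beside 857 genes called in all. In edgeR 11% of all genes were higher and 8.93% lower at that unadjusted p. These counts are no result about the lists. The median of the 137 at 40 µM was 0.10. Other regulators of mitotic entry had the highest share, with 10 of 15 lower, among them CDC25A (-1.25 ± 0.15, adjusted p = 0.000203) and CCNF (cyclin F, -1.06 ± 0.11, adjusted p = 6.3e-05). Of 34 other kinetochore and centromere genes 12 fell, led by SPC24 of the NDC80 complex (-1.11) and SKA3 (-0.69). Of 25 other spindle genes 10 fell, led by HAUS7 of the augmin complex (-1.25) and KNSTRN (-1.11). Condensin had 4 of 8 lower, including NCAPD3 (-0.70) and NCAPH (-0.61). Cohesin with its regulators had 3 of 11 lower, including the shugoshin gene SGO2 (-0.72) and SMC1A (-0.41), and a list median of -0.12.

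Of 17 APC/C subunits and partners 6 fell, including ANAPC15 (-0.83) and UBE2S (-0.74), and ANAPC16 rose (0.50 ± 0.15, adjusted p = 0.0209). For the cohesin, DREAM and MuvB, cytokinesis and centriole lists the counts were near the shares over all genes tested (17.5% lower, 17.4% higher). They are no result about the lists. In the DREAM and MuvB list 3 of 12 fell, including TFDP1 (-0.90) and MYBL2 (-0.58, B-MYB). Of 8 other cytokinesis genes CHMP4B fell (-0.60), and of 7 other centriole genes CEP135 rose (0.53 ± 0.17, adjusted p = 0.0381).

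CDKN1A, which encodes the CDK inhibitor p21, and MDM2, a ubiquitin ligase gene, rose at each dose. CDKN1A had 30.0, 31.1 and 31.5 CPM in the control, 112, 102 and 86.9 CPM at 40 µM and 354, 327 and 117 CPM at 80 µM. The groups did not overlap, and 80 µM replicate 3 was far below the other two of its group. The log2 fold change of CDKN1A was 1.70 ± 0.33 at 40 µM (adjusted p = 0.027) and 3.11 ± 0.34 at 80 µM (adjusted p = 0.000107), and that of MDM2 was 0.65 (adjusted p = 0.0253) and 1.52 (adjusted p = 1.68e-05). In 80 µM replicate 3, 6 of the 42 mitotic genes were above the control mean, against 5 and 3 in replicates 1 and 2, and their median difference from that mean was -0.44, against -0.37 and -0.49 (log2). Whether p21 had a part in the falls was not tested.

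Counts of some genes can include reads of others. In GENCODE 29, 16 of the 42 genes share exon bases with another gene, 4 on the same strand (BUB1B with BUB1B-PAK6, CENPA with SLC35F6, NUSAP1 with AC087721.2 and PRC1 with AC068831.7) and 13 on the opposite strand, among them PLK1, CCNA2, MAD2L1, KIF2C, KIF20A, KIF23 and HMMR. Since no source used here gives the strand setting of the counting, the counts of these genes are uncertain to that extent. A further 8 genes, CDC20, DLGAP5 and AURKA among them, have named processed pseudogenes that could share reads.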

How the data were processed

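RNA-seq counts of 9 MM.1S libraries were analysed, grouped by dose from the labels. The authors deposited, per the file headers, a whole-number count and an FPKM value (scaled by transcript length and depth) for each gene in each library. The deposited counts carry no normalization and entered every test; the deposited FPKM values served only to order levels between genes. HISAT2, edgeR, SAMtools 1.3.1, CASAVA 1.8 and GRCh38 are listed, without roles, in the submitters' processing notes. No source used here names the counting program, annotation release or strand setting.

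Counts were filtered with filterByExpr by group, scaled by TMM and tested with edgeR 4.0.16 (quasi-likelihood F test, two-sided, R 4.3.3) on all 9 libraries with dose as the factor and 6 residual degrees of freedom. The threshold for a call was 0.05 on p-values adjusted by Benjamini-Hochberg over all 15982 genes tested. SEs are the absolute log2 fold change over the square root of F. CPM values use TMM library sizes, except those of the cell type markers, which use total counts. The GC offset was a lowess curve (span 0.3) on GC content of each library's log2 deviations from the mean of all 9 libraries. Medians over gene lists are descriptions with no test. The script was tested on simulated data. Alternatives included DESeq2 1.42.0, limma-voom (limma 3.58.1), other scalings, no filter, a replicate block and leaving out each library. Same-numbered libraries did not deviate together (correlations -0.14 to 0.05), and no libraries of the same dose were copies of each other. Libraries of different doses were not checked for copies. Within each role the genes with the smallest p at 80 µM against the control (2, or 3 for roles of 7 or more) are given per library. From the other lists, up to 2 called genes with the largest rise and 2 with the largest fall at 80 µM are named. The 42 genes and all lists were chosen with earlier results of these data known. Positions are from GENCODE 29 (GRCh38).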

Additional observations from a re-analysis of the deposited data

How the results depend on the processing

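Of the 24 genes called lower at 80 µM against the control, 12 kept the call in all 18 alternatives, as did 18 of the 33 called at 80 µM against 40 µM. Except for the GC offset, no shares over all genes are given for the alternatives, so counts called under them are no result about the 42. Counts called higher at 40 µM were 3 with DESeq2, 1 with the GC offset (1.96% of all genes) and 0 to 1 leaving out single libraries. With only control replicate 1 as control (chosen after seeing the data), that lone library is assumed to vary like the other groups; 14 genes were lower at 80 µM, with the median still -0.45, and 1 at 40 µM, BIRC5, whose level in that library was the highest of the 3 controls. The median at 40 µM was 0.06 with the GC offset and 0.11 to 0.25 leaving out single libraries. At 80 µM against the control, 1 gene (KIF2C) was higher by library size alone and with the GC offset, and 0 to 1 leaving out single libraries, which gave 16 to 26 lower and medians of -0.49 to -0.39. At 80 µM against 40 µM leaving out single libraries gave 19 to 35 lower. The replicate block, for numbers that did not pair the libraries, gave 20 lower at 80 µM against the control and 30 against 40 µM. Sign changes touched genes with no call. At 40 µM CDC25C was 0.00 with limma-voom, with 6 libraries and with the GC offset, -0.01 by library size alone and -0.18 to 0.12 leaving out single libraries. The GC offset gave -0.02 for CCNB1, 0.03 for CDC20, 0.06 for ESPL1 and -0.13 for CENPE. With only control replicate 1, FOXM1 was -0.05, KIF23 -0.09 and PRC1 -0.25. Leaving out single libraries at 40 µM gave -0.08 to 0.09 for FOXM1, -0.04 to 0.12 for CDCA8, -0.02 to 0.26 for CENPE, -0.03 to 0.11 for KIF20A, -0.03 to 0.27 for KIF23, -0.05 to 0.45 for PRC1, -0.02 to 0.18 for CCNB1 and -0.08 to 0.18 for UBE2C. At 80 µM against the control AURKA was 0.01 with RLE, 0.02 by library size alone and -0.10 to 0.15 leaving out single libraries. ECT2 was 0.00 with no filter, -0.16 with the GC offset, -0.29 with only control replicate 1 and -0.22 to 0.19 leaving out single libraries. The GC offset gave -0.01 for NUSAP1, -0.19 for HMMR and 0.02 for FOXM1, and PLK4 was 0.03 with only control replicate 1. Leaving out single libraries gave -0.20 to 0.02 for NDC80, -0.15 to 0.28 for NUSAP1, -0.13 to 0.20 for HMMR, -0.50 to 0.00 for PRC1, -0.30 to 0.09 for KIF11, -0.16 to 0.15 for PLK4 and -0.38 to 0.07 for FOXM1, which was -0.41 to 0.04 at 80 µM against 40 µM. The causes were not tested.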
